A study of Danio rerio with 6 samples.

Results

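The nuclear genes of oxidative phosphorylation were examined in *sart3* mutant zebrafish, and 109 of the 37898 genes in the count table belong to them. They were chosen by name alone, as every gene outside the mitochondrial genome whose name starts with ndufa, ndufb, ndufc, ndufs, ndufv, sdha, sdhb, sdhc, sdhd, uqcr, cox4, cox5, cox6, cox7, cox8 or atp5. Letter case was ignored, and 7 of the names are in capitals. RNA came from whole embryos at 4 dpf (days post fertilization), with 3 libraries of *sart3*-/- mutants carrying the nonsense allele *smu471* and 3 libraries of their WT siblings. Both groups came from one kind of cross, an intercross of *sart3*+/- fish, were sorted by high-resolution melting genotyping and received no treatment. Sart3 is a spliceosome factor, and its gene is mutated here in every cell of the animal and not in 1 tissue. The paper predicts a truncated protein, and the level of Sart3 protein is not known from these data. The labels do not give the number of embryos behind a library or say that the libraries came from separate clutches, so the p-values below measure the spread between these libraries only.

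By complex, the genes were assigned as 40 of complex I, 5 of complex II, 8 of complex III, 24 of complex IV and 20 of complex V. The name rule also takes in 12 assembly factors of complexes I and II. The 4 genes of the ndufa4 family, though named for complex I, were placed in complex IV. The 2 atp5if1 inhibitor genes were placed in complex V. Complexes I to IV make up the respiratory chain of the mitochondrial inner membrane, which passes electrons from NADH and succinate to oxygen and pumps protons, and complex V, the ATP synthase, uses the proton gradient to make ATP. Most subunits are encoded in the nucleus and imported, while the core membrane subunits of complexes I, III, IV and V are encoded by mitochondrial DNA, so each of these complexes draws on both genomes. Muscle, heart, neurons and photoreceptors, which use much ATP, are rich in these complexes, and several subunits have paralogs with tissue-restricted expression.

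The libraries held between 16008788 and 18310233 reads counted on genes, and libraries of one group differed from each other by more than the sampling noise. *sart3* itself stood at 66.1, 68.8 and 70.2 CPM (reads on the gene scaled to the library size) in the siblings and at 53.4, 48.1 and 49.3 CPM in the mutants (log2 fold change -0.44, SE 0.07, adjusted p = 0.0023), so the label of each library fitted the level of the mutated gene. Levels are given as CPM for one gene across libraries. For levels between genes, the authors' FPKM, which divides by gene length, is used. All fold changes are mutants over siblings on the log2 scale, with p adjusted over the 24809 genes tested, and a gene was called at an adjusted p under 0.05. The SE was derived from edgeR's quasi-likelihood test, as the absolute log2 fold change divided by the square root of the test's F statistic.

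The nuclear oxidative phosphorylation genes leaned modestly lower in the mutants, with the lowest medians in complexes II, IV and V, and few were higher. Of the 101 members with enough counts for the test, 21 were called lower and 2 higher. That is 20.8% lower against 14.3% over all genes tested, and 1.98% higher against 13.6% over all genes tested. Among the 3114 genes with a mean CPM at or above the members' median, 23.6% were lower and 28.3% higher. Among protein-coding genes under 1000 bases, 18.2% were lower and 7.04% higher, at a median of -0.10. The lower share of the members lay between these, and their higher share lay below both. Without mutant replicate 2, 7 of the lower and 2 of the higher calls remained. Over all genes, that fit called 4706 of 25314 tested, against 6924 of 24809 with all libraries. With all libraries 23 members were called in either direction, against 27.9% of all genes tested. The median log2 fold change of the members was -0.09, against 0.01 over all genes tested, and 65 of the 101 were negative. Over all genes tested 12207 of 24809 were negative, and among protein-coding genes under 1000 bases 956 of 1662 were. Groups did not overlap in CPM for 33 members that were lower, where 22.3% of all genes tested did so, and for 9 that were higher, where 22.8% did so. All 23 called members were free of overlap, so its absence below is a description and no added support for a call.

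Most drops were small. Apart from *sdhda*, *cox4i2*, *cox8b* and *ndufa4l2a*, the members called lower fell by 0.21 to 0.57 on the log2 scale. The spread within a group had a median CV of 8.23%, and 65 members varied by less than 10%. The calls held in each of the 6 fits that left out 1 library for 6 lower members (*ndufa6*, *ndufa11*, *sdhda*, *cox4i2*, *cox8b* and *ATP5MD*) and for both higher members (*atp5mc3a* and *ndufaf7*), and the other 15 called members lost the call in at least 1 of these fits.

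**Figure D1:**
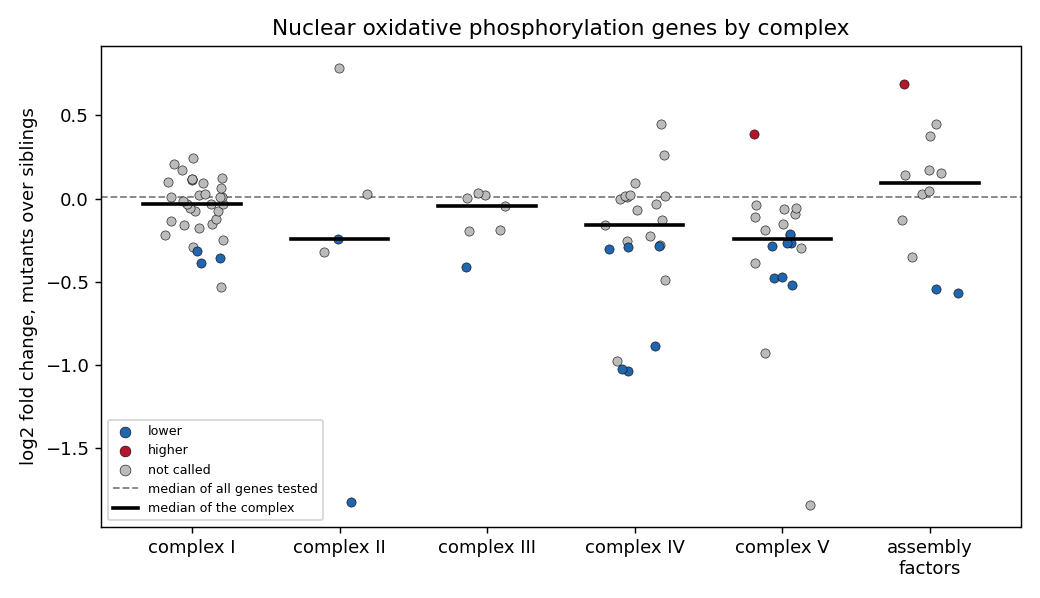
Log2 fold change of each tested member (mutants over siblings) by complex, with 1 point per gene, colours for the call and a bar at the median of each complex. Complex I centres near 0 with 3 of 34 genes lower, while complex V centres at -0.24 with 7 of 20 lower and 1 higher. Over all genes tested 14.3% were lower and 13.6% higher.

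Complex I, the NADH dehydrogenase, had few called genes. Of its 34 tested genes 3 were lower (8.82%) and 0 higher at a median of -0.03, where 14.3% and 13.6% of all genes tested were. None of the 6 tested core subunits, which carry the redox centres, was called. All 3 genes that fell encode accessory subunits, of which 28 were tested. *ndufa6*, an accessory subunit of the arm facing the matrix, stood at 84.7, 77.2 and 77.7 CPM in siblings and at 65.5, 60.1 and 57.7 CPM in mutants (log2 fold change -0.39, SE 0.08, adjusted p = 0.0063). *ndufa11*, a subunit of the membrane arm, went from 43.2, 45.3 and 49.1 CPM to 35.2, 36.8 and 35.4 CPM (-0.36, SE 0.08, adjusted p = 0.011). In both genes every mutant library lay below every sibling library. *NDUFB1* had the highest mean FPKM of complex I at 179, but its gene model is only 177 bases long and FPKM divides by length. It went from 37.6, 34.5 and 34.8 CPM to 30.7, 26.5 and 28.5 CPM (-0.32, SE 0.09, adjusted p = 0.030), a call that held in 2 of the 6 fits with 1 library left out.

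*ndufv1*, the flavoprotein that takes up electrons from NADH, read 372, 351 and 334 CPM in siblings and 355, 316 and 334 CPM in mutants (-0.07, SE 0.07). For this gene the groups overlapped. The acyl carrier paralogs *ndufab1a* (0.01, SE 0.16) and *ndufab1b* (0.02, SE 0.10) were not called either, and the other members of the complex lay between -0.53 for *ndufa1*, whose libraries ranged from 4.05 to 28.3 CPM, and 0.24 for *ndufa7*.

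A group of complex I genes gave almost no reads, so nothing can be said of them here. *ndufa12*, *ndufb4* and *ndufs4* had 0 counts in each of the 6 libraries, *ndufb5* had 1 count and *ndufs1*, the largest core subunit, had 3 counts over all libraries together. The gene model of *ndufs1* (chromosome 6, 13206516 to 13231951, GRCz11) is covered for 97.6% by *ino80db* on the same strand, which had 599 to 753 counts. *ndufb4* is covered for 65.4% by *hgd* on the opposite strand. Whether this overlap set the counts was not tested. *ndufs8b*, *ndufa4l2b* and *uqcrb* had counts but too few for the test, which makes 8 untested members in all.

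Complex II, succinate dehydrogenase, links the chain to the TCA cycle and is encoded wholly in the nucleus. Here 2 of 5 genes were lower (40%, against 14.3% of all genes tested), at a median of -0.25. *sdha*, the flavoprotein that oxidizes succinate and the member of complex II with the highest level (130 FPKM), stood at 445, 396 and 372 CPM in siblings and at 343, 330 and 350 CPM in mutants (-0.25, SE 0.07, adjusted p = 0.040). Groups did not overlap, but the call held in 1 of the 6 fits with a library left out, and it was lost with RLE factors (adjusted p = 0.052). *sdhb*, the iron-sulfur subunit, stood at 236, 200 and 185 CPM against 160, 149 and 186 CPM (-0.32, SE 0.11, adjusted p = 0.058), with mutant replicate 3 inside the sibling range.

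The membrane anchor gene *sdhd* has a pair of paralogs, and they differed. *sdhda* (chromosome 5, 30081241 to 30088077) fell from 0.898, 1.13 and 1.63 CPM to 0.347, 0.312 and 0.358 CPM (-1.82, SE 0.40, adjusted p = 0.010). These values rest on 16, 20 and 29 counts in siblings and 6, 5 and 6 counts in mutants. *sdhdb*, the paralog that gave nearly all reads of the pair, stayed at 92.2, 83.3 and 88.1 CPM against 91.1, 86.7 and 90.5 CPM (0.03, SE 0.07). *sdhda* supplied 1.37% of the reads of the pair in siblings and 0.377% in mutants, so the drop bears on a minor transcript. It lies 9.6 Mb from *sart3* on the same chromosome, where mutants and siblings also differ by descent, and the share of that linkage in the difference was not tested. *sdhc*, the other anchor, could not be read, since it varied from 5.77 to 22.7 CPM among siblings and from 3.68 to 42.2 CPM among mutants.

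Complex III, which passes electrons from quinol to cytochrome c, had 1 of 7 tested genes lower and 0 higher, at a median of -0.04. That is 14.3% lower, the same share as over all genes tested, of which 13.6% were higher. *uqcr10*, a small subunit beside cytochrome c1, fell from 78.3, 74.2 and 78.6 CPM to 66.1, 55.9 and 51.8 CPM (-0.41, SE 0.10, adjusted p = 0.013). Its groups lay well apart. *uqcrh*, the hinge protein and the gene of complex III with the highest level (172 FPKM), read 164, 147 and 144 CPM against 134, 126 and 138 CPM (-0.19, SE 0.07, adjusted p = 0.077). The Rieske iron-sulfur protein *uqcrfs1* read 336, 306 and 297 CPM against 287, 269 and 266 CPM (-0.19, SE 0.07, adjusted p = 0.065). Neither was called, although the groups of both did not overlap. The core proteins *uqcrc1* (0.02, SE 0.08), *uqcrc2a* (0.00, SE 0.07) and *uqcrc2b* (0.03, SE 0.06) were within 1 SE of 0.

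Complex IV, cytochrome c oxidase, reduces oxygen to water. Of its 23 tested genes 6 were lower (26.1%) and 0 higher, at a median of -0.16, where 14.3% and 13.6% of all genes tested were. The larger drops were in minor paralogs. *cox4i2* (chromosome 23, 18944388 to 18951148), the paralog of subunit 4 that in mammals is found mainly in lung and is raised in low oxygen, stood at 29.7, 28.4 and 29.1 CPM in siblings and at 14.3, 13.4 and 14.8 CPM in mutants. Its log2 fold change of -1.04 (SE 0.09, adjusted p = 0.00010) carried the smallest adjusted p of the members, and it ranged from -1.07 to -0.998 over the fits without 1 library. *cox4i1*, the main paralog and the gene with the highest level in the complex (513 FPKM), read 360, 351 and 357 CPM against 386, 385 and 367 CPM (0.09, SE 0.05, adjusted p = 0.24). The mutant mean of *cox4i2* was 51.3% lower, and the groups of *cox4i2* lay far apart.

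*cox8b* (chromosome 25, 10499642 to 10503043), whose mammalian counterpart is a heart and muscle form of subunit 8, fell from 22.8, 22.04 and 19.3 CPM to 10.18, 12.96 and 8.36 CPM (-1.03, SE 0.17, adjusted p = 0.0024). Its paralog *cox8a* read 220, 202 and 211 CPM against 242, 214 and 183 CPM (0.01, SE 0.10). *ndufa4l2a*, whose mammalian counterpart is induced in low oxygen and belongs to a family that includes a subunit of cytochrome c oxidase, fell from 4.10, 4.18 and 5.18 CPM to 2.14, 3.24 and 1.91 CPM (-0.88, SE 0.26, adjusted p = 0.035). The abundant *ndufa4l* read 255, 240 and 232 CPM against 258, 236 and 241 CPM (0.01, SE 0.06). The call of *ndufa4l2a* held in 2 of the 6 fits with a library left out, and it was lost with the replicate number as a block (adjusted p = 0.064).

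Within subunit 5 the drop was smaller. *cox5ab* went from 133, 124 and 121 CPM to 112, 104 and 94.5 CPM (-0.29, SE 0.08, adjusted p = 0.028), and *cox5aa* read 211, 197 and 186 CPM against 194, 192 and 194 CPM (-0.03, SE 0.06). *COX5B* (-0.29, SE 0.07, adjusted p = 0.019) and *cox7b* fell too. *cox7b* stood at 169, 167 and 167 CPM in siblings and at 148, 127 and 133 CPM in mutants (-0.30, SE 0.07, adjusted p = 0.013). *cox6a1*, a regulatory subunit, read 266, 272 and 255 CPM against 250, 266 and 276 CPM (-0.00, SE 0.06). The genes whose mammalian counterparts are muscle forms gave no further call. *cox6a2* read 4.77, 2.996 and 2.54 CPM against 2.37, 2.74 and 2.21 CPM (-0.49, SE 0.29). *cox7a1* read 11.4, 13.7 and 4.56 CPM against 9.26, 2.62 and 3.11 CPM (-0.98, SE 0.53). Its paralog *cox7a2a*, annotated as a liver form and not a muscle form, was near 0 (-0.07, SE 0.07). For both *cox6a2* and *cox7a1* the groups overlapped. The low paralog *cox4i1l* ranged from 1.91 to 10.03 CPM among mutants (0.26, SE 0.47).

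**Figure D2:**
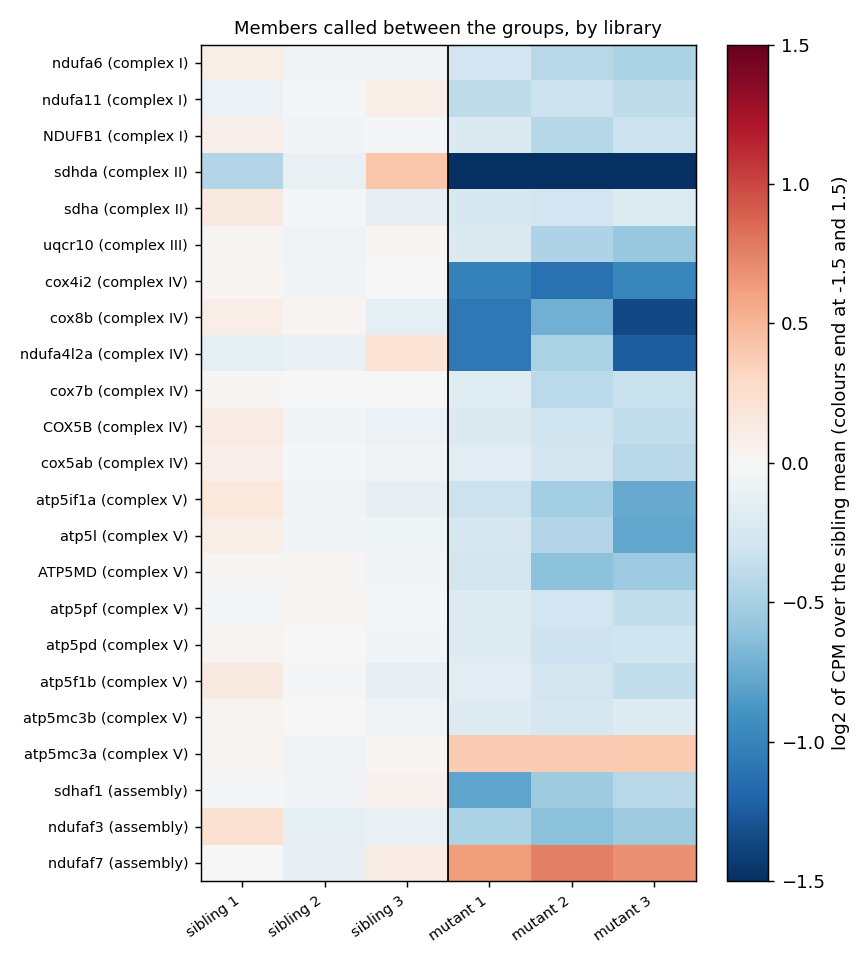
Level of the 23 called members in each of the 6 libraries, as log2 of CPM over the sibling mean, grouped by complex. Blue is below and red above the sibling mean, and *sdhda* is the deepest blue in each of the 3 mutant columns, while *atp5mc3a* and *ndufaf7* are red.

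Complex V, the ATP synthase, had the most called genes, with 7 of 20 lower and 1 higher at a median of -0.24. That is 35% lower and 5% higher, against 14.3% and 13.6% of all genes tested. In complex V 19 of the 20 genes had a negative log2 fold change, where 12207 of the 24809 genes tested did. *atp5f1b*, the catalytic beta subunit, had the highest level of any member (1202 FPKM). It stood at 2725, 2420 and 2277 CPM in siblings and at 2215, 2040 and 1920 CPM in mutants (-0.27, SE 0.08, adjusted p = 0.046). Groups did not overlap, but the call held in 1 of the 6 fits with a library left out and was lost with RLE factors (adjusted p = 0.058). *atp5fa1*, the alpha subunit, read 2089, 1922 and 1823 CPM against 1876, 1786 and 1810 CPM (-0.09, SE 0.07, adjusted p = 0.34), and the other F1 subunits were not called.

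The genes of the membrane part, the stalk and the inhibitor included the larger called drops. *atp5if1a*, the inhibitor that blocks the enzyme from hydrolysing ATP, went from 59.6, 51.1 and 48.8 CPM to 42.5, 37.3 and 31.4 CPM (-0.52, SE 0.12, adjusted p = 0.015). *atp5l*, subunit g of the membrane part, which helps the enzyme form dimers, went from 227, 206 and 204 CPM to 178, 157 and 123 CPM (-0.48, SE 0.12, adjusted p = 0.020), and like *sdhda* it lies on the chromosome of *sart3*, 10.22 Mb away. *ATP5MD*, another small membrane subunit, went from 59.2, 59.5 and 57.0 CPM to 48.3, 38.2 and 40.1 CPM (-0.47, SE 0.10, adjusted p = 0.0074). In each of them the mutants lay below all siblings, and mutant replicate 1 was the highest of the mutants. *atp5pf*, a subunit of the outer stalk, went from 139, 143 and 138 CPM to 122, 114 and 108 CPM (-0.28, SE 0.06, adjusted p = 0.013). *atp5pd*, which sits in the same stalk, fell as well (-0.27, SE 0.06, adjusted p = 0.0115). The second inhibitor gene *atp5if1b* had a drop of -1.84 with an SE of 0.66 that was not called, and its mutant libraries ran from 0.636 to 4.06 CPM.

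Subunit c, which forms the rotating ring of the ATP synthase, has 3 genes among the members, of which 1 was called higher and 1 lower. In mammals the genes of this subunit encode one mature peptide behind different import sequences. *atp5mc3a* (chromosome 9, 2330798 to 2341127) rose from 166, 156 and 163 CPM to 211, 211 and 211 CPM (0.39, SE 0.06, adjusted p = 0.0013), with hardly any spread among mutants. *atp5mc3b*, the paralog with the highest level (570 FPKM), fell from 664, 645 and 620 CPM to 563, 542 and 560 CPM (-0.21, SE 0.06, adjusted p = 0.023), a call that held in 3 of the 6 fits with a library left out (adjusted p = 0.104 without mutant replicate 2). *atp5mc1* read 366, 354 and 350 CPM against 351, 337 and 355 CPM (-0.04, SE 0.06). The model of *atp5mc3a* is covered for 62.4% by a transcript on the opposite strand that had 0 or 1 count in each library.

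Because a ratio of paralogs within a library does not depend on how libraries are scaled, 19 such pairs were set against each other. Some pairs share a gene, among them those with *atp5mc3a*, *cox4i1* or *ndufa4l*, so the pairs are not independent. With 3 against 3 libraries the exact permutation test cannot go below p = 0.1. Each difference named here as free of overlap reached that value, so none passed a threshold of 0.05. Lack of overlap is also common for the CPM of single genes, at 22.3% lower and 22.8% higher over all genes tested. The log2 ratio of *atp5mc3a* to *atp5mc3b* was -1.99 ± 0.06 in siblings and -1.40 ± 0.03 in mutants (SD, n = 3 each), and its share of the reads of the pair from 20.1% to 27.5%. For *cox4i2* to *cox4i1* the ratio went from -3.61 ± 0.02 to -4.74 ± 0.10 and the share from 7.55% to 3.60%. The ratio of *cox8b* to *cox8a* went from -3.31 ± 0.13 to -4.36 ± 0.28 and the share from 9.19% to 4.71%. The ratio of *atp5meb*, which lies 11.4 Mb from *sart3*, to *atp5mea* fell by 0.69 without overlap. It rests on only 25, 20 and 24 counts of *atp5meb* in siblings and 12, 7 and 15 in mutants. In the edgeR fit *atp5meb* was not called (adjusted p = 0.090). The ratio of *cox5ab* to *cox5aa* fell by 0.26 and that of *ndufa4l2a* to *ndufa4l* by 0.93, again without overlap. The ratios of *sdhda* to *sdhdb* and of *atp5mc3a* and *atp5mc3b* to *atp5mc1* were also free of overlap. By contrast *uqcrc2a* to *uqcrc2b*, *ndufab1a* to *ndufab1b* and *cox6b1* to *cox6b2* overlapped between the groups, with differences of -0.03, -0.00 and -0.19. The pairs *cox6a2* to *cox6a1*, *cox5b2* to *COX5B*, *cox7a1* to *cox7a2a* and *cox4i1l* to *cox4i1* overlapped too. So did *atp5if1b* to *atp5if1a*, *ndufa9b* to *ndufa9a* and *ndufa4* to *ndufa4l*.

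**Figure D3:**
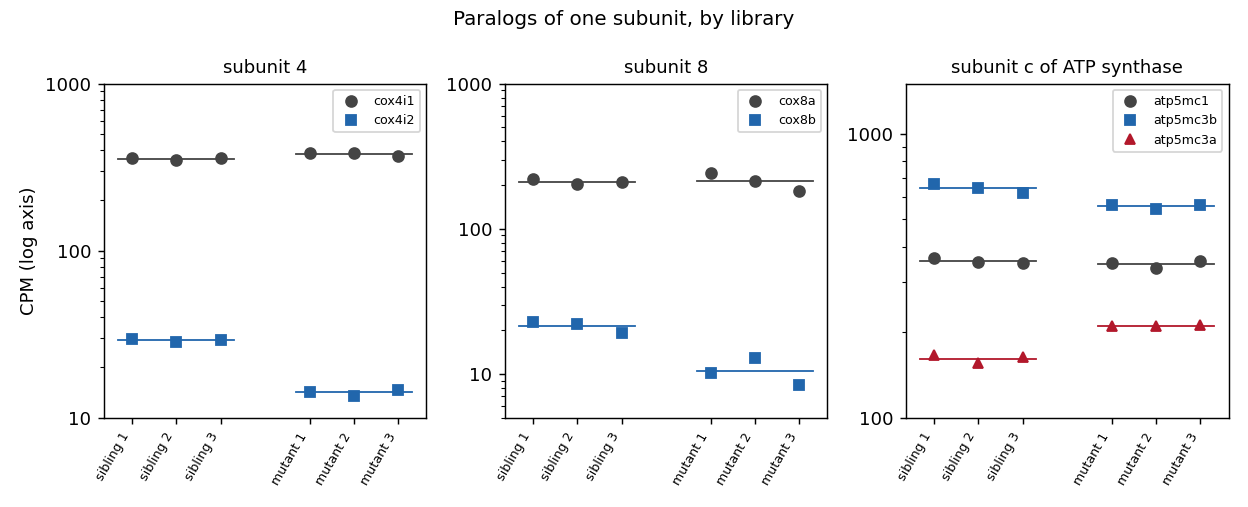
CPM on a log axis of paralogs of 3 subunits in each library, with a line at the mean of each group of 3. *cox4i2* and *cox8b* lie lower in the mutants beneath *cox4i1* and *cox8a*, which were not called, and the *atp5mc3a* and *atp5mc3b* points draw together in the mutants.

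Among the 12 assembly factors 1 was higher (8.33%) and 2 were lower (16.7%), where 13.6% and 14.3% of all genes tested were. *ndufaf7* (chromosome 20, 3277620 to 3288089), an assembly factor that is an arginine methyltransferase in human cells, rose from 9.31, 8.54 and 10.1 CPM to 14.4, 15.7 and 15.0 CPM (0.69, SE 0.12, adjusted p = 0.0040). *ndufaf3*, a complex I assembly factor, fell from 33.2, 25.5 and 26.1 CPM to 20.4, 18.4 and 19.5 CPM (-0.54, SE 0.12, adjusted p = 0.012). *sdhaf1*, which helps insert iron-sulfur clusters into SDHB, fell from 11.1, 10.97 and 11.8 CPM to 6.54, 7.79 and 8.48 CPM (-0.57, SE 0.15, adjusted p = 0.021). All 3 changes were free of overlap between groups, as were those of all 23 called members. The models of both genes that fell run into others, *sdhaf1* for 97.7% into another gene on the same strand and *ndufaf3* for 49.2% into a gene on the opposite strand, so their counts are uncertain.

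Because Sart3 acts in the spliceosome, the events in the deposited splicing tables were searched for members. The 2075 events, of which 1327 were skipped exons, were all already selected by the authors' own test. The members are 109 of 37898 genes, and 3 of these events lay in 2 members. Each was a skipped exon, the most common type, in a complex I assembly factor. Which genes were tested for events is not given, so the members' share cannot be set against that of tested genes. The tables do not write a genotype on their value sets, and the sets were read as mutants first from the order in which the comparison is named. In *ndufaf5*, which in human cells hydroxylates an arginine of NDUFS7, an exon of 84 bases (chromosome 1, 51228082 to 51228165) was included at 1, 0.989 and 1 in siblings and at 0.856, 0.888 and 0.822 in mutants. The exon was nearly always kept in siblings and was skipped in 15, 11 and 13 junction reads of the mutants. The difference was -0.14 without overlap (exact permutation test, p = 0.1, the smallest possible), on 107 to 175 reads per library. *ndufaf5* was not called in expression (0.17, SE 0.16).

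In *ndufaf1*, a factor of the membrane arm of complex I, an exon of 56 bases (chromosome 13, 33246911 to 33246966) appeared in a pair of events that differ in the exon downstream. With the nearer downstream exon its inclusion was 0.853, 0.825 and 1 in siblings and 0.784, 0.800 and 0.762 in mutants, on as few as 8 reads per library. With the farther one it was 0.353, 0.371 and 0.452 in siblings against 0.403, 0.408 and 0.678 in mutants, and the groups overlapped (exact permutation test, p = 0.4). The directions were opposite, and *ndufaf1* was not called in expression (0.05, SE 0.11). None of the 23 members called in expression had such an event, but only 2 of all 109 members had any. Counts this small do not show whether changes in splicing and in expression go together.

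Members are short genes, and short genes leaned lower in the mutants as a whole. Their median length was 952 bases, against 2387 over all genes tested. Over the 1662 tested protein-coding genes under 1000 bases, a limit chosen after the values were seen, 18.2% were lower, 7.04% higher and the median was -0.10. Over the 17621 of 1000 bases or more, 15.2% were lower, 14.9% higher and the median was 0.01. Among the members, 11 of 51 under 1000 bases and 10 of 50 at or above it were called lower, with medians of -0.13 and -0.08. Members are also abundant, and over the 3114 genes with a mean CPM at or above the members' median, 23.6% were lower and 28.3% higher. What length or level contributes to the counts was not tested.

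**Figure D4:**
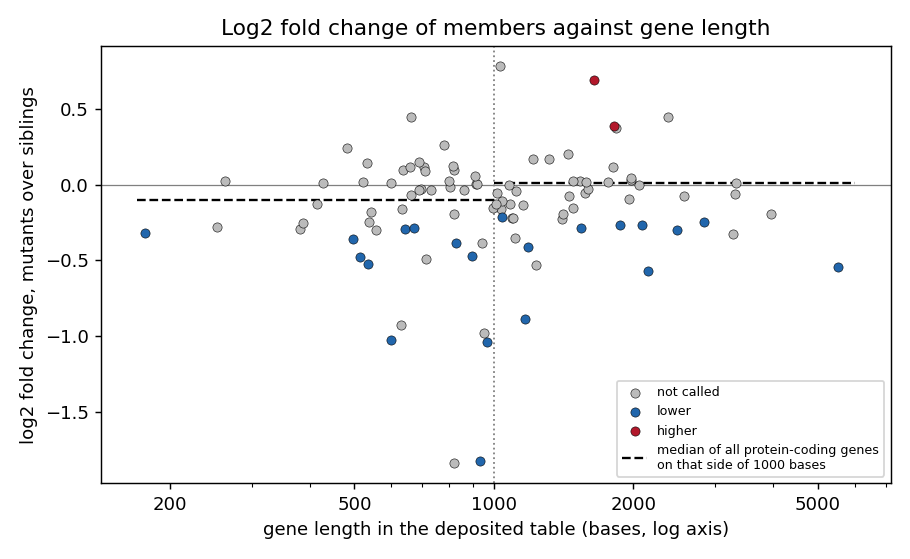
Log2 fold change of the tested members against gene length on a log axis, with dashed lines at the medians of all protein-coding genes under 1000 bases (-0.10) and of 1000 bases or more (0.01). Called members lie on both sides of the limit, and both genes called higher are longer than 1000 bases.

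Summed over all members, the nuclear transcripts came to 16169, 14975 and 14575 CPM in siblings and to 14516, 13674 and 13621 CPM in mutants, a mean difference of -8.55% with no overlap but a narrow gap between sibling replicate 3 and mutant replicate 1. Complex V supplied the greater part of the sum and differed by -11.0%, complex II by -13.5%, complex IV by -6.38%, complex III by -5.61% and complex I by -3.77%. The groups were free of overlap only for the sums of complexes IV and V, with a narrow gap in both. For complexes I, II and III they overlapped, as with complex II at 652 CPM in sibling replicate 3 and 669 CPM in mutant replicate 3. The transcripts of the 13 proteins encoded by mitochondrial DNA moved the other way. Of these 9 were called higher and 0 lower at a median of 0.23, led by *mt-co1*, the catalytic subunit of complex IV (0.39, adjusted p = 0.0051). That is 69.2% higher, against 13.6% of all genes tested and 28.3% of genes at or above the members' median CPM. Over all genes tested 14.3% were lower. Their sum was 47068, 45379 and 44379 CPM in siblings and 53417, 54282 and 59797 CPM in mutants (22.4% higher). Mitochondrially encoded reads per read of the nuclear members thus were 2.995 ± 0.07 in siblings and 4.01 ± 0.36 in mutants (SD, n = 3 each), and the groups did not overlap.

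**Figure D5:**
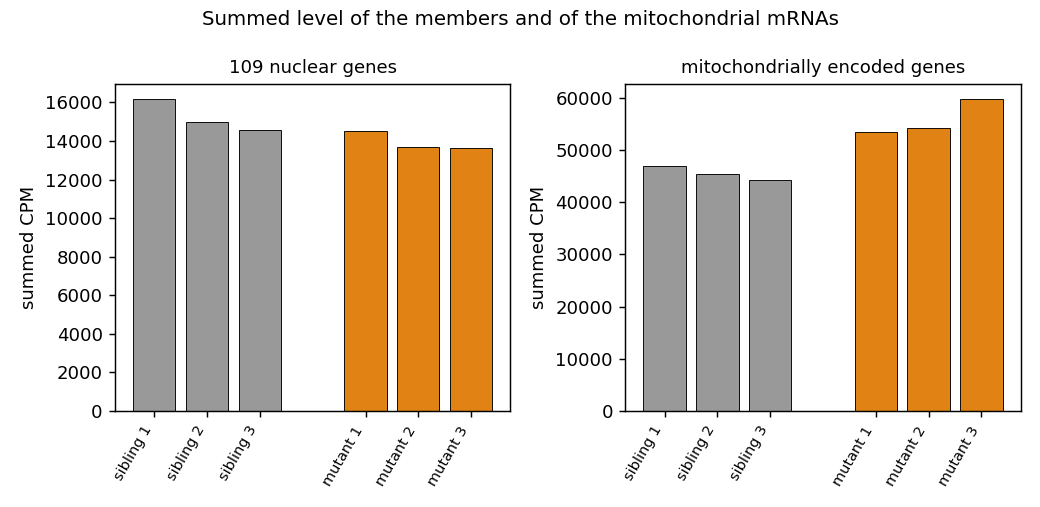
Summed CPM of the nuclear members (left) and of the mitochondrially encoded genes (right), 1 bar per library, from 0. All mutant bars lie below all sibling bars on the left, with 14516 CPM in mutant replicate 1 close to 14575 CPM in sibling replicate 3, and above them on the right.

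In whole embryos fewer cells of a type and less RNA per cell cannot be told apart, and markers of several tissues differed between the groups. Beside the counts that follow, 14.3% of all genes tested were lower and 13.6% higher. All 8 photoreceptor markers were lower, with summed levels of 4357 to 5432 CPM in siblings and 1449 to 1662 CPM in mutants. All 6 intestinal markers were lower (1509 to 1563 CPM against 877 to 916 CPM), 5 of 8 pan-neuronal markers were lower (2501 to 2637 CPM against 2121 to 2211 CPM), and 2 of 8 liver markers were lower (5132 to 6125 CPM against 3624 to 5598 CPM). Of 13 tested fast muscle markers 9 were higher and 2 lower (50818 to 57215 CPM against 65538 to 67929 CPM). None of the 5 tested heart markers (61.7 to 63.9 CPM against 69.6 to 70.5 CPM) and none of the 5 tested ionocyte markers (134 to 151 CPM against 142 to 157 CPM) was called. No marker in these lists was at 0 in every library. What these tissues contribute to the lower level of the members was not tested.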

How the data were processed

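RNA of whole embryos was sequenced from 3 libraries of mutants and 3 of siblings. The authors deposited the counts of reads on each gene without normalization, FPKM that the authors computed by dividing the counts by gene length and a library constant, and each gene's position and length in bases. The submitters' processing notes name HISAT2 2.0.5, featureCounts 1.5.0-p3 and GRCz11, and the strand setting is not given in the sources used here. The authors also deposited rMATS tables of splicing events they called significant, with junction reads of each library. Columns of the authors' own tests in these tables were not used. Every count column was used.

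Counts were compared with edgeR 4.0.16 in R 4.3.3, by the quasi-likelihood test on 3 mutants against 3 siblings after filterByExpr, with TMM factors (0.975 to 1.015) and Benjamini-Hochberg adjustment over the 24809 genes tested at 0.05, two-sided. CPM use the TMM factors. limma 3.58.1 and DESeq2 1.42.0 served as alternatives, besides other factors, filters, a replicate block and each library left out. The fit was tested on simulated data. Inclusion is the share of junction reads divided by the effective length of each form, compared by exact two-sided permutation over libraries, as were paralog ratios. A search of promoters for motifs was planned and not run. No chance test was run over the members as a set. Python 3.11.15 with pandas 2.3.3, numpy 2.4.6 and scipy 1.17.1 was used.

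The members, gene lists and markers were chosen with earlier results of these data known. Genes named with their library values were, in each complex, up to 4 called members a direction with the largest log2 fold change, no overlap and a mean CPM of at least 1, the member with the highest FPKM, a fixed set of core subunits and paralogs, and members with a splicing event. The names ndufa4a, cox5ba, cox5bb and atp5f1a of that set are not in the table, and 1 gene of it is not reported here. *cox8a*, *atp5pd*, *COX5B* and other paralogs were added after their values were seen.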

Additional observations from a re-analysis of the deposited data

How the results depend on the processing

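The members called numbered between 21 and 28 under other scaling factors, filters and tools except where stated here, and the 2 genes called higher were called under each of them. Over all genes tested, these factors, filters and tools called 6575 to 6943 genes, against 6924 in the main fit. RLE factors kept 19 of the 21 lower calls, upper-quartile factors, limma-voom and DESeq2 kept 21. With a log2 fold change of at least 1 in size as a further condition, 3 members were called, 3 lower and 0 higher. The share of all genes tested that met both conditions is not given here. This count therefore cannot be read as high or low for the members. Leaving out each library in turn gave 9 to 21 called members, 7 to 19 lower, 2 to 3 higher and a median of -0.12 to -0.08. The lowest counts came without mutant replicate 2, and the cause was not tested. Over all genes tested, the fits without 1 library called 4706 to 7085 genes. The lowest of these, 4706 of 25314, also came without mutant replicate 2, against 6924 of 24809 in the main fit. The replicate block, with the number in the sample names as a block, gave 22 called members, 20 lower and 2 higher. Same-numbered libraries did not deviate together more than others (r of 0.06, 0.03 and -0.11, against -0.11 to 0.08 for differently numbered ones). The labels do not say that the numbers pair libraries, and these correlations cannot show whether libraries were prepared in pairs. Under the block *sdha* (adjusted p = 0.058) and *ndufa4l2a* (adjusted p = 0.064) lost the call, and DESeq2 added *sdhb* (adjusted p = 0.030). Of the 3 splicing events 2 had at least 10 junction reads in every library.

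Direction turned only among genes that were not called. The log2 fold change of *uqcrc2a* was -0.00302 with RLE factors, -0.013 with upper-quartile factors, -0.0189 with every gene that had a count and -0.00299 with DESeq2. That of *ndufab1a* was -0.00604 with upper-quartile factors and -0.0129 with every gene that had a count, that of *ndufa4l* was -0.00436 with every gene that had a count, that of *cox6a1* was 9.7e-05 with at least 10 counts in every library and that of *cox4i1l* was -0.0308 with limma-voom. Over the fits without 1 library, it ranged from -0.0342 to 0.0364 for *cox6a1*, from -0.0793 to 0.0156 for *cox5aa*, from -0.0143 to 0.0779 for *uqcrc2b*, from -0.0583 to 0.067 for *uqcrc1*, from -0.0241 to 0.0542 for *ndufa4l*, from -0.0473 to 0.0694 for *uqcrc2a*, from -0.0313 to 0.0633 for *sdhdb*, from -0.0534 to 0.0997 for *ndufab1b*, from -0.0566 to 0.17 for *ndufaf1*, from -0.15 to 0.118 for *ndufab1a*, from -0.345 to 0.682 for *cox4i1l* and from -0.423 to 1.75 for *sdhc*. The depth limits the members with few counts, *sdhda* among them, and leaves 8 members without a test.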

Other observations

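Other mitochondrial and metabolic genes were counted by lists written with earlier results of these data known, beside 13.6% higher and 14.3% lower over all genes tested. Of 24 genes of the TCA cycle and pyruvate dehydrogenase 8 were lower (33.3%) and 2 higher (8.33%), at a median of -0.15. *pdha1a*, the E1 alpha subunit of pyruvate dehydrogenase, which feeds the cycle, went from 78.0, 81.3 and 57.7 CPM to 7.06, 8.72 and 13.9 CPM (-2.87, adjusted p = 7.1e-05), and its paralog *pdha1b*, at a far lower level, fell as well (-2.99, adjusted p = 0.017). *pcxb*, pyruvate carboxylase, went from 225, 239 and 242 CPM to 137, 140 and 116 CPM (-0.85, adjusted p = 0.00015), and *ogdhb*, of the 2-oxoglutarate dehydrogenase complex, fell by 0.75. *dlat*, the E2 subunit of pyruvate dehydrogenase, rose (0.39, adjusted p = 0.0036).

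The mitochondrial ribosome, which makes the proteins encoded by mitochondrial DNA, had 11 of 67 tested genes higher (16.4%, near the share of all genes) and 1 lower (1.49%), at a median of 0.08. *mrps31* stood out, from 9.93, 9.72 and 8.06 CPM to 55.1, 48.3 and 47.4 CPM (2.44, adjusted p = 3.2e-06). Among import genes 6 of 33 were higher (18.2%) and 1 lower (3.03%). Among assembly and carrier genes outside the name rule 8 of 51 were higher (15.7%) and 2 lower (3.92%). Of 31 glycolytic genes 8 were higher (25.8%) and 11 lower (35.5%). Of 23 tested regulators of mitochondrial genes 5 were lower (21.7%) and 2 higher (8.70%). *nrf1*, which in mammals activates many respiratory chain genes, went from 61.8, 56.6 and 58.5 CPM to 34.4, 32.6 and 32.4 CPM (-0.83, adjusted p = 9.8e-05). *gabpa*, the other factor known in mammals for these promoters, went from 15.8, 15.4 and 15.5 CPM to 7.93, 10.8 and 8.42 CPM (-0.78, adjusted p = 0.0050). Whether these factors bear on the level of the members was not tested.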
